A study of Mus musculus with 10 samples.

Results

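Rarres1 (retinoic acid receptor responder 1, NCBI gene ID 109222) is 1 of 7542 mouse genes that 10 liver arrays measured through probe sets with a single gene symbol, and it was read by 1 probe set. It was taken up because its values were already known to differ between the groups. In a fit over all probe sets it had been called higher in TgSREBP-1a liver, lower in Scap-/- liver, higher in TgSREBP-1a liver than in liver of the TgSREBP-2 line, and lower in the transgenic study's wild type pool than in that of the Scap study. Its levels and differences are therefore given as a description, with standard errors and without a test. P-values are given only for other genes. Whether Rarres1 passed the call is stated, and nothing is read from that.

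The arrays were Affymetrix MG_U74Bv2 chips, hybridised with total RNA from livers of male mice. The transgenic study held TgSREBP-1a and TgSREBP-2 mice, which overexpress human SREBP-1a or human SREBP-2 in the active nuclear form, and their wild type (WT) littermates. All 3 of those groups were 12 to 16 weeks old and ate a diet high in protein and low in carbohydrate for 2 weeks, which was meant to raise the transgenes' expression. The Scap study held Scap-/-;MX1-Cre mice and WT mice, all 10 to 12 weeks old and fed Teklad chow. Both of its groups received 4 intraperitoneal injections of polyinosinic-polycytidylic acid, which induces Cre expression from MX1-Cre, and livers were taken 14 days after the last one.

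In every group, RNA of 5 mice was combined into 1 pool and hybridised to 2 arrays. Duplicates therefore share their RNA, n = 2 counts hybridisations of 1 pool, and a p-value here measures hybridisation error and not the spread between mice. The sources used here do not give the promoter that drives the transgenes. The WT pools differ at once in diet, age, injections and breeding, and these cannot be told apart.

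In human cells RARRES1 is known as a gene induced by retinoids through retinoic acid receptors, and also under the name tazarotene-induced gene. It encodes a membrane protein related to latexin, an inhibitor of metallocarboxypeptidases, and the human protein binds AGBL2, a cytosolic carboxypeptidase. SREBPs are membrane-bound transcription factors of lipid synthesis. SCAP escorts their precursors to the Golgi, where proteases release the active nuclear fragment, while INSIG proteins hold SCAP back when sterols are plentiful. In liver, SREBP-1a is known to drive both fatty acid and cholesterol synthesis, and SREBP-2 mainly cholesterol synthesis and uptake.

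Rarres1 lies on the minus strand of chromosome 3 (chr3:67478886-67515523 in RefSeq's annotation of GRCm38.p6) and spans 36638 bases. The sequence of the 250 bases before its start, at chr3:67515524-67515773, is shown because the SREBPs and the retinoic acid receptors, which the gene's name and the mice call to mind, act through short DNA motifs. It comes from RefSeq, is written 5′ to 3′ on the gene's strand, and its capitals mark matches to the GC box.
Rarres1: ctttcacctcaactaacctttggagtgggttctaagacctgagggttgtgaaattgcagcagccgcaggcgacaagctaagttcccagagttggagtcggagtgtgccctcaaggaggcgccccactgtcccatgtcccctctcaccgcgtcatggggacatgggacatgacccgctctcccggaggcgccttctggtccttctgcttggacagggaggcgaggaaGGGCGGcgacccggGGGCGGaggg

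G and C made up 62.4% of this stretch, against a median of 52.4% over 32851 promoter stretches of the same length. The GC box GGGCGG, the letters that SP1-type factors bind, occurred 2 times, at positions -24 to -19 and -10 to -5 from the start, and 32.7% of all promoters held at least 1 match. Searched on both strands, these bases held 0 matches to the sterol regulatory element TCACNCCAC (1.05% of promoters), the E-box CANNTG (66.2%), its form CACGTG (6.02%), the CCAAT box (33.8%) or the retinoid receptor half-site AGGTCA (14.0%). CACGTG is contained in CANNTG. A match is a run of letters and not a measured binding site, and no binding was measured here. None of the 10 genes nearest to Rarres1 in the RefSeq table, 5 on each side, was measured on this chip. They include Lxn, which encodes latexin.

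The values below are the deposited log2 expression values, on which a difference of 1 is a doubling. The duplicate arrays read Rarres1 at 8.05 and 7.94 in TgSREBP-1a liver, at 5.08 and 5.55 in TgSREBP-2 liver and at 6.29 and 6.15 in WT liver of the transgenic study. They read 7.60 and 7.11 in Scap-/- liver and 9.02 and 8.52 in WT liver of the Scap study. The groups did not overlap, and each transgenic line sat on its own side of the WT arrays it was bred beside. The mean was 7.997 ± 0.076 in TgSREBP-1a, 5.316 ± 0.329 in TgSREBP-2 and 6.220 ± 0.098 in WT of the transgenic study, and 7.356 ± 0.347 in Scap-/- and 8.773 ± 0.353 in WT of the Scap study (SD, n = 2 each). Over the 10 arrays Rarres1 spanned 3.94, while the pooled SD between duplicates was 0.27.

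**Figure D1:**
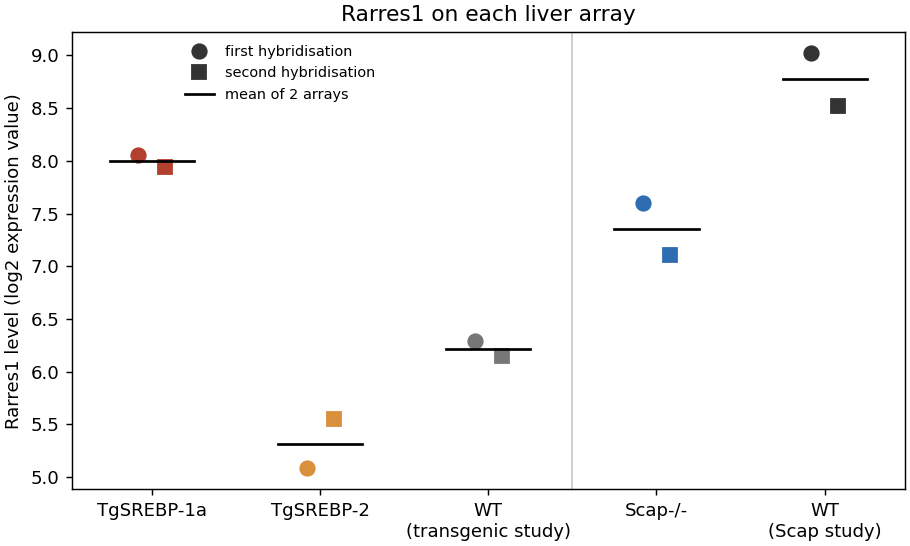
Rarres1 level (log2 expression, vertical axis) on each of the 10 arrays, by group. Points are single arrays and bars are group means over the duplicate arrays; the TgSREBP-1a arrays stand at 8.05 and 7.94, the TgSREBP-2 arrays at 5.08 and 5.55, and the WT arrays of the transgenic study lie between them at 6.29 and 6.15.

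From low to high, the group means ran TgSREBP-2, WT of the transgenic study, Scap-/-, TgSREBP-1a and WT of the Scap study. WT of the transgenic study exceeded TgSREBP-2 by 0.90, with a gap of 0.60 between the closest arrays, wider than the larger of the differences between duplicates (0.47). Scap-/- exceeded WT of the transgenic study by 1.14, with a gap of 0.82 against 0.49. Among the upper neighbours the gaps were smaller. TgSREBP-1a exceeded Scap-/- by 0.64 with a gap of 0.34 between the closest arrays, less than the 0.49 between the Scap-/- duplicates and more than the 0.11 between those of TgSREBP-1a. WT of the Scap study exceeded TgSREBP-1a by 0.78 with a gap of 0.47, less than the 0.50 between its own duplicates. In both pairs the arrays did not overlap and the means differed by more than either group's duplicates did, while the closest arrays lay nearer to each other than the duplicates of the more variable group. These neighbours come from different studies.

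Active SREBP-1a in the liver went with more Rarres1 RNA. Rarres1 was higher by 1.78 ± 0.21 in TgSREBP-1a than in WT liver (limma SE, n = 2 arrays each), a 3.43-fold difference. The 4 differences between single arrays ran from 1.65 to 1.90. This was the 25th largest positive difference among 12411 probe sets. A call here always means a limma adjusted p below 0.05 together with a 1.5-fold or larger difference, and by that rule 1.36% of probe sets were called higher and 0.814% lower in this comparison. Rarres1 was in the higher share, as its choice required, and nothing is read from that.

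With active SREBP-2, Rarres1 read lower than in WT liver, and the value did not pass the call. It was lower by 0.90 on the log2 scale, a difference of -0.90 ± 0.21, or 1.87-fold lower. Differences between single arrays ran from -1.21 to -0.60, and the first TgSREBP-2 array, at 5.08, gave the wider ones. It ranked 17th among the negative differences of this comparison, in which 0.338% of probe sets were called higher and 0.161% lower. Both transgenic comparisons use the same WT arrays.

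Between the transgenic lines the difference was 2.68 ± 0.21, with TgSREBP-1a at 6.42 times the level of TgSREBP-2. It was the largest positive difference among the 12411 probe sets, and the 4 differences between single arrays ran from 2.40 to 2.97. In this comparison, 1.18% of probe sets were called higher in TgSREBP-1a and 0.677% lower. TgSREBP-1a and TgSREBP-2 mice shared diet, age range and sex. Each line was 1 pool of 5 mice, so transgene, founding line and differences between pools cannot be told apart.

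Loss of SCAP, which lowers the active forms of all SREBPs, went with less Rarres1 RNA. Rarres1 differed by -1.42 ± 0.21 between Scap-/- and WT liver of the Scap study, or 2.67-fold lower in Scap-/-. The single-array differences ran from -1.91 to -0.92. Rarres1 ranked 16th among the negative differences of all probe sets. In this comparison 0.0161% of probe sets were called higher and 0.258% lower. Rarres1 no longer passed the call when the second Scap-/- array or the first WT array was left out, or when the fit used only the 4 arrays of the Scap study. The difference itself then ran from -1.67 to -1.17 over the single arrays left out.

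The most negative Rarres1 difference involved no transgene and no knockout. Rarres1 differed by -2.55 ± 0.21 between WT liver of the transgenic study and WT liver of the Scap study, or 5.87-fold lower in the WT liver of the transgenic study. Single-array differences ran from -2.87 to -2.24, and no probe set had a more negative difference. Here 0.153% of probe sets were called higher and 0.355% lower in the WT of the transgenic study. The WT mice of the transgenic study ate the high protein diet, were older and were not labelled as injected, so the value cannot be assigned to diet. This pool is also the one that both transgenic lines are set against.

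**Figure D2:**
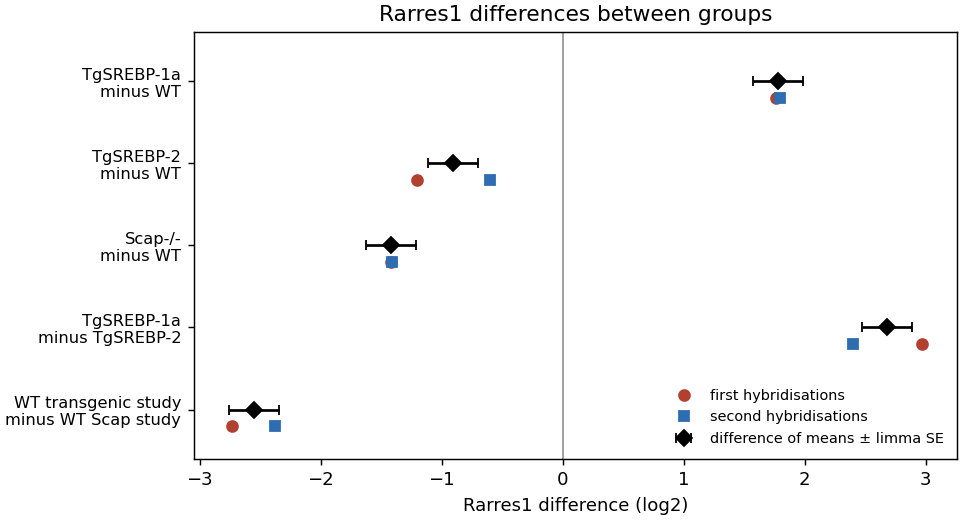
Rarres1 differences in log2 expression (horizontal axis) for the 5 comparisons, first-named minus second-named group. Diamonds with bars are the differences of group means with their limma SE. Circles set the first hybridisations against each other and squares the second, though these numbers are not stated to mark pairs. TgSREBP-1a over TgSREBP-2 stands at 2.68, and the WT pools at -2.55.

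Known SREBP targets were set beside Rarres1. Insig1, the sterol-regulated retention protein of SCAP, read 8.62 and 8.54 in TgSREBP-1a liver and 7.72 and 8.11 in TgSREBP-2 liver, against 5.62 and 5.47 in WT liver. In the Scap study it read 4.53 and 4.12 in Scap-/- liver, against 7.26 and 6.45 in WT liver. Insig1 was thus high in both transgenic lines, where Rarres1 was high in TgSREBP-1a alone of these lines. Its r with Rarres1 over the 10 arrays was 0.04 (a description, since arrays of a group share a pool).

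The cholesterol synthesis list had 8 measured members. Of these, 6 were called higher in TgSREBP-1a (median change 1.61, against -0.02 over all probe sets). In TgSREBP-2, 7 were called higher (median 2.11), and in Scap-/- 6 were called lower (median -1.37). Over all probe sets 1.36% were called higher in TgSREBP-1a, 0.338% higher in TgSREBP-2 and 0.258% lower in Scap-/-. The count in Scap-/- was 2 when the second Scap-/- array was left out, 3 without the first WT array and 1 with only the 4 arrays. Idi1, the isopentenyl diphosphate isomerase, rose by 1.61 ± 0.16 in TgSREBP-1a (limma, adjusted p = 0.000223) and by 2.79 ± 0.16 in TgSREBP-2 (limma, adjusted p = 2.68e-05), and changed by -2.26 ± 0.16 in Scap-/- (limma, adjusted p = 0.000146). It was the only member called between the lines, at -1.18 ± 0.16 in TgSREBP-1a relative to TgSREBP-2 (limma, adjusted p = 0.00266), a call lost without the first TgSREBP-1a array. Rarres1 stood at 2.68 in that comparison. Members' r with Rarres1 ran from -0.18 to 0.38.

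Of 13 measured fatty acid synthesis genes, 7 rose in TgSREBP-1a (median 1.33), 3 in TgSREBP-2 (median 0.19), and 6 were called higher in the TgSREBP-1a line when the lines were compared (median 0.54), as Rarres1 was. The other 7 were not called there, and the lowest of them stood at -0.11. Over all probe sets 1.36% were called higher in TgSREBP-1a, 0.338% in TgSREBP-2 and 1.18% in TgSREBP-1a between the lines. Fasn, the fatty acid synthase, rose by 2.83 in TgSREBP-1a and by 1.20 in TgSREBP-2, the second call being lost without the second WT array or the first TgSREBP-2 array. Its difference between the lines was 1.64. Acaca, an acetyl-CoA carboxylase, stood at 2.44, 1.06 and 1.38 in these 3 comparisons. No member of the list was called lower in TgSREBP-2, where the lowest change was -0.26 and Rarres1 stood at -0.90. In Scap-/-, where 0.258% of all probe sets were called lower, 3 members fell, Acacb, Acss2 and Fads2 (median of the list -0.26). That count was 1 when the second Scap-/- array or the first WT array was left out, or with only the 4 arrays, and the count of 3 in TgSREBP-2 was 1 without the second WT array or the first TgSREBP-2 array.

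Of 9 measured genes of SREBP control and sterol uptake, 5 were called higher in TgSREBP-1a (median 0.87) and 3 in TgSREBP-2 (median 0.16). In Scap-/- 4 were called lower (median -0.32). The shares of all probe sets called in these directions were 1.36%, 0.338% and 0.258%. The count in Scap-/- was 1 without the second Scap-/- array, 2 without its duplicate or the first WT array, and 0 with only the 4 arrays. The count in TgSREBP-1a was 3 without its first array or the second WT array. Scap itself read 7.95 and 7.75 in Scap-/- liver, against 9.25 and 8.89 in WT liver of that study. Its difference of -1.22 was called, and the call was lost without either Scap-/- array, without the first WT array or with only the 4 arrays. Srebf2, which encodes SREBP-2, was called in none of the 5 comparisons, with changes from -0.21 to 0.22. Its probe set read only 3.24 to 3.86, below the array medians (5.625 to 5.662), so a change in its RNA could go unseen. Lpin1, a phosphatidate phosphatase, rose by 1.30 in TgSREBP-1a and read -0.06 in TgSREBP-2. Both its TgSREBP-1a call and its call between the lines (1.37) were lost without the first TgSREBP-1a array. The TgSREBP-1a call was also lost without the second WT array, and the call between the lines without the first TgSREBP-2 array.

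Between the WT pools, where Rarres1 stood at -2.55, 5 of the 8 cholesterol synthesis genes were called lower in the transgenic study (median -1.35). Idi1 stood at -1.83 and Pmvk, the phosphomevalonate kinase, at -1.66. Over all probe sets 0.355% were called lower there. Of the fatty acid synthesis list only Acss2, an acetyl-CoA synthetase, was called lower (-1.65), and of the SREBP control list Insig1 (-1.31) and Aacs (-0.91), an acetoacetyl-CoA synthetase. The calls of Pmvk, Acss2, Insig1 and Aacs were lost without the first WT array of the Scap study. They were also lost without the second WT array of the transgenic study and with only the 4 arrays. Those of Insig1 and Aacs were lost without the first WT array of the transgenic study too.

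The gain and loss comparisons against WT share no arrays. Their calls are still not independent, since a single fit over all arrays gave both a shared variance per probe set. Of the probe sets called higher in TgSREBP-1a, 19 were also called lower in Scap-/-, Rarres1 among them. Over all probe sets 0.258% were called lower in Scap-/-. With only the 4 arrays of the Scap study, 5 probe sets were called lower there, so most of the 19 rest on the fit over all arrays. Within these 19, Rarres1 had the lowest TgSREBP-2 value. The second lowest was Acacb, a mitochondrial acetyl-CoA carboxylase, at -0.14 against the -0.90 of Rarres1, and the median was 1.49. Only 3 of the 19 were below 0 in TgSREBP-2, and 11 were called higher there, against 0.338% of all probe sets. That comparison uses the same WT arrays as the TgSREBP-1a comparison that picked them, which pushes it above 0. Gstt3, a glutathione transferase, had a TgSREBP-2 value near 0 (-0.03), with 2.01 in TgSREBP-1a and -0.89 in Scap-/-.

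Rarres1 also had the lowest value of the 19 between the WT pools, with Idi1 next at -1.83 and a median of -0.93. There, 16 of the 19 were below 0 and 10 were called, Rarres1 included. Camk1d, a calmodulin-dependent kinase, went the other way on the probe set among the 19, at 1.09. Over all probe sets 0.153% were called higher and 0.355% lower between the WT pools. That comparison reuses the WT arrays of both comparisons that picked the 19. Picking on a low WT pool in the transgenic study and a high one in the Scap study pushes it below 0. Nothing is read from these counts. These placements describe Rarres1 within a list whose calls it was chosen on.

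**Figure D3:**
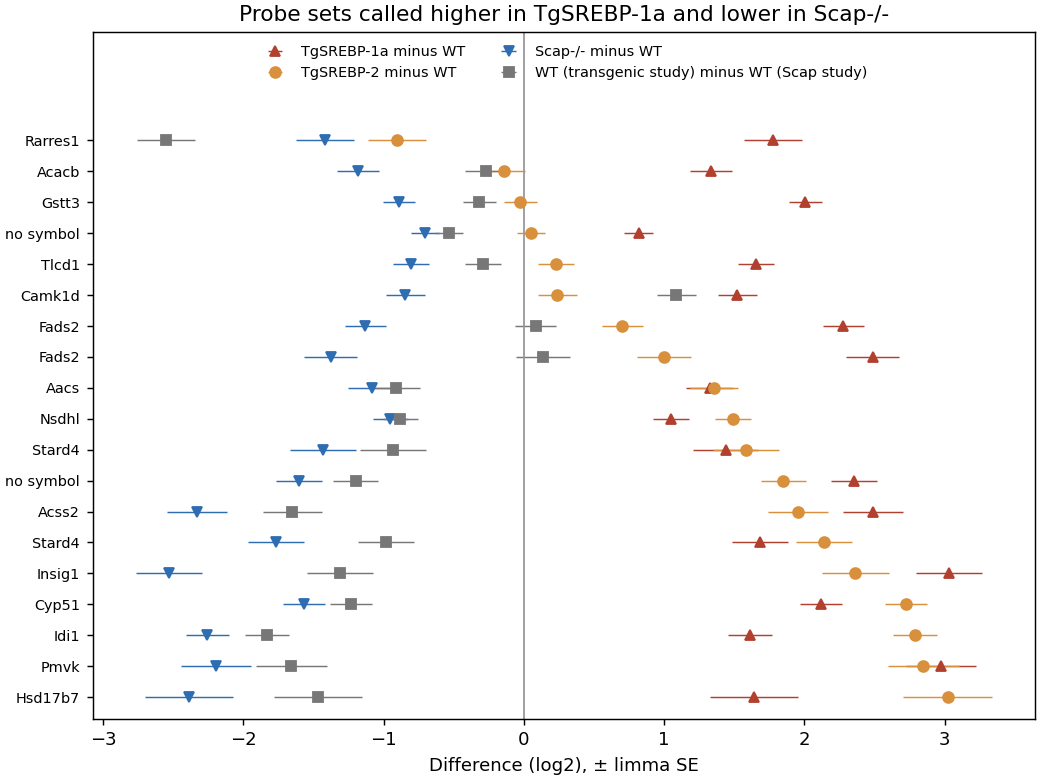
The 19 probe sets called higher in TgSREBP-1a and lower in Scap-/-, each with its log2 difference (horizontal axis, with limma SE bars) in 4 comparisons, marked by shape and colour. Probe sets run from the lowest to the highest TgSREBP-2 value down the page, and Rarres1 at the top has the lowest TgSREBP-2 value (-0.90) and the lowest value between the WT pools (-2.55).

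Retinoid genes were looked at because Rarres1 is named for its response to retinoic acid receptors. Of 5 measured receptors and carriers (Rara, Rarb, Rxra, Rbp7 and Stra6l), 0 were called in any of the 5 comparisons by limma, and their changes ran from -0.51 (Rxra in TgSREBP-1a) to 0.27. Rarb, itself a known target of retinoic acid receptors, and Plaat3 were the 2 genes measured from the list of retinoic acid responsive genes, and 0 were called. The changes of Rarb and Plaat3 lay between -0.10 and 0.31, while Rarres1 moved by up to 2.68. Rarb read 4.711 to 5.085 and Plaat3 4.389 to 4.855, below the array medians (5.625 to 5.662). In no comparison were more than 1.36% of all probe sets called in either direction. With so few and such dim genes, 0 calls do not show whether retinoid responses changed.

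Of 7 measured retinoid enzymes, Rdh9, a retinol dehydrogenase, read 10.22 and 9.77 in TgSREBP-1a liver and 7.58 and 7.69 in TgSREBP-2 liver, against 7.62 and 7.35 in WT liver. It rose by 2.51 ± 0.23 in TgSREBP-1a (limma, adjusted p = 0.000157) and was higher than in TgSREBP-2 by 2.36 ± 0.23 (limma, adjusted p = 0.000437). Rdh9 was high on the TgSREBP-1a arrays, as Rarres1 was. The genes parted in the other groups. Rdh9 was not called in TgSREBP-2 (0.15), in Scap-/- (-0.35) or between the WT pools (-0.22), where Rarres1 stood at -0.90, -1.42 and -2.55, and its r with Rarres1 was 0.38. Rdh16f2, of the same dehydrogenase family, fell by 1.24 in TgSREBP-1a, a call lost on leaving out any 1 of the 4 arrays.

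Carboxypeptidases were listed because of the protein's relation to latexin. Of 12 measured, only Cpb1 was called, lower in TgSREBP-1a, in Scap-/- and in TgSREBP-1a relative to TgSREBP-2. Over all probe sets 0.814%, 0.258% and 0.677% were called lower in these comparisons. Cpb1, the pancreatic carboxypeptidase B, read 5.22 and 4.98 in TgSREBP-1a liver and 10.62 and 10.19 in TgSREBP-2 liver, against 10.01 and 9.53 in WT liver. It read 5.86 and 5.51 in Scap-/- liver, against 9.11 and 8.68 in WT liver. Its fall was -4.67 ± 0.21 in TgSREBP-1a (limma, adjusted p = 1.06e-06) and -3.21 ± 0.21 in Scap-/- (limma, adjusted p = 0.000135), while Rarres1 stood at 1.78 and -1.42. Cpb1 is also a marker of pancreatic acinar cells, whose summed levels are given further on.

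Likeness to Rarres1 was measured as Pearson's r over the 10 arrays, among 298 probe sets with 1 symbol whose group means spanned at least 1 on the log2 scale. The points share pools and normalization, so r describes these arrays, and no p is given. The 10 probe sets most like it belonged to Pygl, Agpat2, Ddhd1, Aldh4a1, Mal2, Trub2, Hsd17b13, Ptprb, Slc23a1 and Gch1, with r from 0.94 down to 0.86. Taken over the 5 group means instead, 9 of these 10 stayed among the 10 highest.

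Pygl, the liver glycogen phosphorylase, came first at 0.94. It was called only between the WT pools, at -1.25. That call was lost with only the 4 arrays and without the first WT array of the Scap study. It was also lost without either WT array of the transgenic study. Pygl read 0.59 in TgSREBP-1a, -0.37 in TgSREBP-2 and -0.48 in Scap-/-. Agpat2, an acyltransferase of phosphatidate synthesis, followed at 0.93, and was likewise called between the WT pools alone (-0.96, lost under the same settings). Ddhd1, a phosphatidic acid-preferring phospholipase, had an r of 0.92 and no call. Aldh4a1, a mitochondrial dehydrogenase of proline breakdown, had 0.91.

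Hsd17b13, a lipid droplet protein of hepatocytes, had an r of 0.88 and the largest difference between the lines among the 10, at 1.93 ± 0.24 (limma, adjusted p = 0.00182), with 0.83 in TgSREBP-1a, -1.10 in TgSREBP-2 and 0.03 in Scap-/-. Slc23a1, a vitamin C transporter, had 0.86, but its other probe sets had r of -0.39 and -0.44, so the probe sets disagree. The other probe sets of Pygl, Ddhd1 and Ptprb had r of 0.81, 0.66 and 0.88. None of the 10 was called lower in Scap-/-, where 0.258% of all probe sets were, so this says little. Their changes there ran from -0.71 (Mal2) to 0.03 (Hsd17b13).

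Opposite to Rarres1 ran Cnot2 (r -0.86), a subunit of the CCR4-NOT deadenylase, then Tmem250-ps, Tedc2, Fgl1 and Dnajc12 (-0.80). Dnajc12, a co-chaperone, differed between the lines by -1.56 ± 0.15 (limma, adjusted p = 0.000467). Fgl1 is a secreted fibrinogen-like protein of the liver. It was higher by 1.67 ± 0.22 in the transgenic study's WT than in the Scap study's (limma, adjusted p = 0.00934). That call was lost without the first WT array of the transgenic study and with only the 4 arrays. Rarres1 stood at 2.68 and -2.55 in these comparisons.

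**Figure D4:**
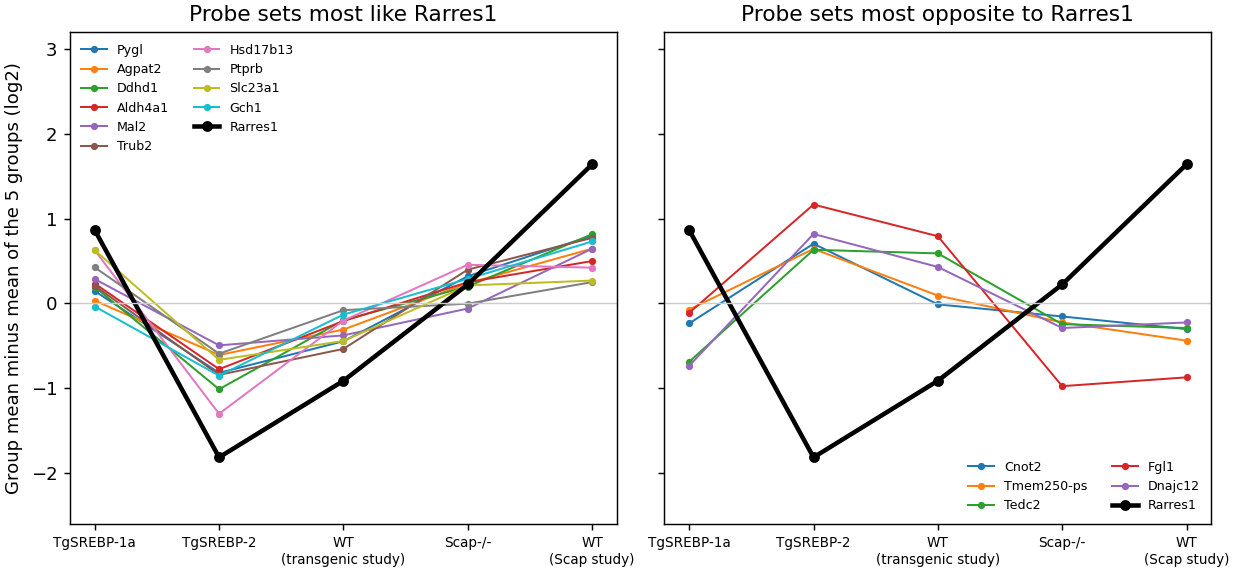
Group means of log2 expression, each minus the mean of the 5 groups (vertical axis), for Rarres1 in black and the 10 probe sets most like it (left) or the 5 most opposite to it (right); lines only join the values of a probe set. The Rarres1 means span 3.46, more than those of any other probe set drawn.

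Lists tied to the diet and the injections were read next. Of 10 measured genes of amino acid breakdown and the urea cycle, 0 were called between the WT pools by limma (median -0.30, changes from -0.68 to 0.85). Over all probe sets 0.153% were called higher there and 0.355% lower, so 0 calls in so short a list say little. Gpt2, an alanine aminotransferase, was called higher in TgSREBP-1a than in the TgSREBP-2 line, at 1.44, a call lost without the first array of either line. Of 5 measured interferon response genes, 0 were called between the WT pools (median -0.52) or in Scap-/- (median -0.28). Between the WT pools Rsad2, Ddx58, Oasl2 and Oasl1 stood at -0.733 to -0.495, and Oas2 at 0.018. In Scap-/- 0.0161% of all probe sets were called higher and 0.258% lower. Oasl1, an interferon-induced gene, rose by 0.91 in TgSREBP-1a and stood at 0.62 between the lines. The second of these calls was lost without the first TgSREBP-1a or the second TgSREBP-2 array. Of 4 measured genes of glucose metabolism, Pygl was called between the WT pools, and Ppp1r3c, a glycogen-targeting subunit of protein phosphatase, was lower in both transgenic lines. It differed by -0.81 ± 0.14 in TgSREBP-1a (limma, adjusted p = 0.00894), a call lost without either TgSREBP-1a array or the first WT array, and by -1.11 ± 0.14 in TgSREBP-2 (limma, adjusted p = 0.00369), a call lost without the first WT array. Between the WT pools 1204 of 12411 probe sets had an unadjusted p under 0.05, against 63 called.

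In pooled whole liver, fewer cells of a type and less RNA per cell cannot be told apart. The hepatocyte markers measured (Apoa1, C8a and Hnf4a) had summed levels of 12.65 to 13.67 on the log2 scale on all arrays. Of the 3, C8a, a complement component, was called lower in TgSREBP-1a than in WT liver, and stood at -2.58 in TgSREBP-1a relative to TgSREBP-2. Markers of stellate cells, which store retinoids, and of fibroblasts had 0 calls among 3 measured, and their sums ran from 9.14 to 9.51, with TgSREBP-1a highest. Cholangiocyte and lymphocyte markers had 0 calls among 2 measured each, and the single adipocyte marker had 0. In no comparison were more than 1.36% of all probe sets called in either direction, so 0 calls among so few markers say little. Tfrc, the single erythroid marker, rose by 1.502 in TgSREBP-2, a call lost on leaving out any 1 of the 4 arrays.

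Markers that moved with the groups are given beside Rarres1, and their part in its values was not tested. Macrophage markers (2 measured, Cd163 and Timd4) summed to 6.01 and 6.12 in TgSREBP-1a, against 5.34 and 5.37 in WT liver, and to 5.04 to 5.37 in the other 3 groups together. The higher sum came from Cd163, since Timd4 was not called in TgSREBP-1a (0.068) or between the lines (-0.085). Cd163, a macrophage scavenger receptor, rose by 0.91 in TgSREBP-1a, a call lost on leaving out any 1 of the 4 arrays. Between the lines Cd163 was higher in TgSREBP-1a by 1.21 ± 0.15 (limma, adjusted p = 0.00169). The call held under every alternative that kept its probe set, which a filter on dim probe sets left out. Endothelial markers (5 measured) summed to 9.82 and 9.72 in TgSREBP-1a and to 9.43 and 9.42 in TgSREBP-2, against 9.61 and 9.51 in WT liver. Rarres1 had that order in the transgenic study. WT liver of the Scap study, where Rarres1 was highest, summed to 9.68 and 9.64, below TgSREBP-1a. Stab1, Stab2 and Eng were not called in TgSREBP-1a (0.012, 0.104 and 0.217) or between the lines (0.039, 0.162 and 0.33). Lyve1, a sinusoidal endothelial receptor, rose by 0.64 in TgSREBP-1a, a call lost without either WT array or the first TgSREBP-1a array. Between the lines Lyve1 was higher in TgSREBP-1a by 0.82 ± 0.10 (limma, adjusted p = 0.00157). That call also held under every alternative that kept its probe set, the same filter having left it out. Ptprb, an endothelial phosphatase, stood at 1.02 there, a call lost without either TgSREBP-1a array or the first TgSREBP-2 array. Rarres1 stood at 2.68 in that comparison.

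Pancreatic acinar markers (Cpb1, Cela3b and Ctrc) summed to 7.82 and 7.84 in TgSREBP-1a and to 12.05 and 11.65 in TgSREBP-2, against 11.37 and 10.94 in WT liver. They summed to 8.07 and 8.02 in Scap-/-, against 10.12 and 9.83 in WT liver. The sums were thus low where Rarres1 was high in TgSREBP-1a, and low where Rarres1 was lower in Scap-/-. Cpb1 and Cela3b were called lower in both, while Ctrc was called in neither (-0.219 in TgSREBP-1a and -0.133 in Scap-/-). RMA values hold no zeros and the files hold no detection calls, so whether a low value lies above background is not known.

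The 3′ minus 5′ readings of the actin controls, a measure of RNA integrity and labelling, were 0.84 to 0.86 in TgSREBP-1a and 1.15 to 1.28 in TgSREBP-2, against 0.99 to 1.09 in WT liver. They were 1.01 to 1.23 in Scap-/-, against 1.28 to 1.39 in WT liver. Those of the Gapdh controls ran from 0.46 to 0.99 over all arrays. Duplicates correlated at 0.987 to 0.994 across probe sets. The second TgSREBP-2 array was closer to the second WT array than to its duplicate, and every array of the Scap study was closest to an array of the other group. Without the second TgSREBP-2 array Rarres1 stood at -1.14 in TgSREBP-2, and without the first at -0.67.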

How the data were processed

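The authors deposited log2 expression values, made with RMA per the submitters' processing notes, with no version named. RMA corrects background and makes the arrays' distributions alike, so a change in total RNA would not show. Array medians were 5.625 to 5.662. Of 12477 probe sets, 66 controls were left out and 12411 tested. Symbols came from the platform's annotation: 10581 probe sets had 1, 178 several and 1652 none, and 10550 matched a RefSeq gene of GRCm38.p6 by Entrez ID. Neither the deposited files nor the labels name a genome build.

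One linear model over all 10 arrays with a coefficient per group was fitted with limma 3.58.1 in R 4.3.3, with 2-sided Benjamini-Hochberg adjusted p-values over the 12411 probe sets. A call is an adjusted p under 0.05 with a change of at least 1.5-fold. The procedure was tested on simulated data. Precision is limited by how few arrays there are, and the median SE of a difference was 0.115.

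The gene and the gene lists were chosen with earlier results of these data known. Each list gene is its probe set with the highest mean. Named genes were those most and least like Rarres1 (10 and 5), up to 4 called members per list (with none called, up to 2 by level), Scap, Srebf1, Srebf2, Insig1, Lxn and Rarres1's neighbours where measured. Acacb, Fads2, Gstt3 and Camk1d fall outside that rule and were picked after their values were seen. Alternatives were each array left out, fits on 4 arrays, a replicate block, quantile normalization, a filter on dim probe sets, a trended prior and no minimum change.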

Additional observations from a re-analysis of the deposited data

Results flagged for a closer look

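Rarres1 lay on opposite sides of the same WT pool in the transgenic lines. It stood at 1.78 in TgSREBP-1a and at -0.90 in TgSREBP-2 relative to WT, and every array of each line went in the direction of its group. The gap between the lines was 2.68 on the log2 scale (2.682). No test of this difference is given, since the gene was chosen with it known.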

How the results depend on the processing

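No Rarres1 difference changed sign or moved by 1 SD between duplicates or more under any alternative. Leaving out single arrays gave 1.71 to 1.85 for TgSREBP-1a, -1.14 to -0.67 for TgSREBP-2, -1.67 to -1.17 for Scap-/-, 2.45 to 2.91 between the lines and -2.80 to -2.30 between the WT pools. Quantile normalization gave -1.33 for Scap-/- and -2.48 between the WT pools. Counts of called probe sets moved more. Leaving out 1 array gave 142 to 193 calls in TgSREBP-1a (270 with all arrays), 25 to 124 in TgSREBP-2 (62), 10 to 68 in Scap-/- (34), 87 to 384 between the lines (231) and 14 to 120 between the WT pools (63). In TgSREBP-1a the counts were 142 without its first array, and 149 and 164 without the first and second WT arrays. In TgSREBP-2 they were 124 without its second array and 39 without its first, and 25 and 28 without the first and second WT arrays. In Scap-/- they were 10 without its second array, and 11 and 68 without the first and second WT arrays. Between the lines they were 87 and 142 without the first and second TgSREBP-1a arrays, and 122 and 384 without the first and second TgSREBP-2 arrays. Between the WT pools they were 17 and 14 without the first and second arrays of the transgenic study, and 22 and 120 without those of the Scap study. With only the 4 arrays of a comparison, 5 probe sets were called in Scap-/- and 13 between the WT pools. The replicate block gave 101 calls in TgSREBP-2, 91 in Scap-/- and 145 between the WT pools. Hybridisation numbers are not stated to mark a batch, and deviations of same-numbered arrays correlated at -0.17 to 0.60 between groups, so the numbers were not taken as pairs. Of 84 calls of named genes, 43 held under all alternatives that kept their probe sets. The filter on dim probe sets dropped some of these genes, Cd163 and Lyve1 among them, and so did not test their calls. List counts under the alternatives were chosen after seeing the data. Between the WT pools, the 5 cholesterol synthesis calls became 2 without the second array of the transgenic study, 3 without the first of the Scap study and 1 with only the 4 arrays, and the fatty acid and SREBP control lists had 0 with only the 4 arrays. Alternatives over other probe sets of Rarres1 were not possible with 1 probe set. The causes were not tested, apart from fewer arrays by construction.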
